A study of Mus musculus with 12 samples.

Results

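The 39 genes described here carry out glycolysis or respond to low oxygen, and they were chosen by symbol from the 23420 genes of the count table of 12 B16-F10 tumors. They comprise 2 glucose transporters (Slc2a1 and Slc2a3), 17 glycolytic enzymes and 2 lactate transporters (Slc16a1 and Slc16a3). The others are 3 regulators of the flux through or beyond glycolysis (Pdk1, Pfkfb3 and Pfkfb4), 13 hypoxia-inducible targets and 2 oxygen-regulated transcription factors (Hif1a and Epas1). B16-F10 is a mouse melanoma line derived from C57BL/6 mice, and here it grew under the skin of the flank of male C57BL/6J mice. Non-obese mice ate a control diet. Obese mice ate a Western diet with 0.2% cholesterol for 15 weeks, up to a weight gain of 50%, starting at 4 to 5 weeks of age. Once tumors could be felt, each diet group received 10 mg/kg of isotype control antibody (clone 2A3) or anti-PD-1 antibody (clone 29F.1A12) in the abdominal cavity 3 times a week, and tumors were taken on day 16. This gave 4 groups of 3 tumors, named here by diet and antibody: isotype tumors of non-obese and of obese mice, and anti-PD-1 tumors of both. All tumors came from the same grafted line, and obesity and the Western diet cannot be told apart.

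Glycolysis splits glucose into pyruvate, and in tumors much of that pyruvate is reduced to lactate by lactate dehydrogenase and exported. Glucose enters through facilitative transporters, hexokinase traps it as a phosphate ester, and phosphofructokinase commits it to the pathway. When oxygen is scarce, prolyl hydroxylases can no longer mark HIF-alpha subunits for degradation, and the stabilized factor pairs with ARNT and activates genes through hypoxia response elements with the core letters ACGTG or GCGTG. Many glycolytic genes are themselves HIF targets. They also answer to other inputs, such as MYC and growth factor signaling, whereas the 13 hypoxia targets include genes of mitophagy, angiogenesis, collagen modification and the oxygen sensor itself. The comparison of interest was therefore whether both classes shifted between groups in the same way.

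The promoters of 4 genes are shown because their genes recur in the results: Hk1 and Hk2, the glycolytic genes with the smallest P values in the diet comparison, Ldha, which makes lactate, and Bnip3, the hypoxia target with the highest level per length. Each sequence is the 250 bases before a RefSeq start site (GRCm38.p6, the assembly behind mm10), written 5′ to 3′ on the gene's strand, and capitals mark ACGTG and GCGTG on either strand. The windows are chr10:62340422-62340671 (minus strand) for Hk1 and chr6:82774455-82774704 (minus strand) for Hk2. The other windows are chr7:46845554-46845803 (plus strand) for Ldha and chr7:138909507-138909756 (minus strand) for Bnip3. For Hk1 and Ldha, which have 2 start sites each, the window with more matches is shown, and it lies inside the span of the annotated gene.
Hk1: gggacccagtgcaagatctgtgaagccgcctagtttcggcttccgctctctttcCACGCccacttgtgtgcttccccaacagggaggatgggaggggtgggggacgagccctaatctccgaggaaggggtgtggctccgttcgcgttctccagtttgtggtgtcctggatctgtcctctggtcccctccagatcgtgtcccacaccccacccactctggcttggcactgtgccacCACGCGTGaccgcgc
Hk2: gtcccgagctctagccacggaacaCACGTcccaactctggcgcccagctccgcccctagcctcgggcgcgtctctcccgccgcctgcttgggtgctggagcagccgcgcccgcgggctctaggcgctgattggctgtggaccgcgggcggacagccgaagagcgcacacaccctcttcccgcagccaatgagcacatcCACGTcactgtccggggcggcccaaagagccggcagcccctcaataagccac
Ldha: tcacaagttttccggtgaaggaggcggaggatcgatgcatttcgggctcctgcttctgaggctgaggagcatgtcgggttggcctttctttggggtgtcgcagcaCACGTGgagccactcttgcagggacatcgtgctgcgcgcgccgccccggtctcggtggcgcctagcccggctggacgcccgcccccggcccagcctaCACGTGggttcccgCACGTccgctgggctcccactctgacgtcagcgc
Bnip3: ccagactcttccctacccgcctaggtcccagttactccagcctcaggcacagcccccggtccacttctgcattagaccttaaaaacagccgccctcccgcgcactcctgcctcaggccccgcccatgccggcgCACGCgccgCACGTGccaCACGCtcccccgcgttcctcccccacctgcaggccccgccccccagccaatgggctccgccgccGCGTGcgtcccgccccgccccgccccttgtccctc
The Hk1 window held 3 matches, the Hk2 window 2, and the Ldha and Bnip3 windows 5 each, where a palindrome read on both strands counts as 2 overlapping matches. Of the 35 members with a promoter in the table, 32 (91.4%) had at least 1 match in at least 1 start site, compared with 61.0% of the 9753 tested genes and 41.5% of all 27025 genes in it. Among glycolytic enzymes 14 of 17 had a match (82.4%), and among hypoxia targets 11 of 11. For ACGTG alone the numbers were 7 of 17 (41.2%) and 9 of 11 (81.8%), compared with 25.1% of the tested genes. Eno2, Gpi1 and Tpi1 had no match within these 250 bases. Slc2a3, Bnip3l, Ndrg1 and Epas1 have no entry in the table. These letters are common in promoters, genes with several start sites had more chances, and a match is a description of the sequence only.

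The tumors yielded between 14022929 and 33871843 counts on genes. The summed level of 10 melanocyte markers was 26583 to 32651 CPM (each gene's counts scaled to a total of 1e+06 per library after TMM correction), with 0 markers at 0 in any tumor. The member genes together took 2.85 to 4.63% of all counts, the glycolytic enzymes 2.63 to 4.36% and the hypoxia targets 0.109 to 0.175%. Of the 39 members, 38 passed the filter on low counts and were tested among 13095 genes. The exception was Eno1, the main enolase of most tissues, which had only 2 to 25 counts per tumor. The near-identical copy of Eno1 named Gm5506 had 4 to 22. Reads shared by both genes may have been left uncounted, which was not tested, and the enolase level of these tumors is not read from Eno1 here. Gapdh, Ldha, Pgk1, Pgam1, Tpi1, Aldoa and Pkm also have processed copies in the genome, and their values are uncertain to that extent. Exons of Pfkm, Pfkp, Aldoa, Tpi1 and Ankrd37 overlap a counted gene on the opposite strand over 18 to 748 bases, and whether the counting used strand is not given in the sources used here.

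Per kilobase of annotated exon, the scale on which genes can be compared, the most abundant members were glycolytic enzymes. Gapdh had the highest mean level, 4009 ± 749 CPM per kilobase (SD, n = 12), followed by Aldoa at 3644 ± 606, Pkm at 2526 ± 428, Ldha at 2050 ± 408 and Tpi1 at 2035 ± 344. In this order, Gapdh and Aldoa differed by less than 1 SD, as did Ldha and Tpi1, whereas Aldoa and Pkm, and Pkm and Ldha, differed by more. The first 12 places were all held by glycolytic enzymes. Bnip3, which drives the removal of mitochondria, led the hypoxia targets at place 13 with 97.2 ± 29.9 CPM per kilobase. The remaining targets ranged from 54.8 ± 11.7 for Egln1, the main oxygen-sensing prolyl hydroxylase, down to 2.13 ± 0.729 for Egln3. Not all glycolytic enzymes stood above the targets. Hk2 (54.9 ± 16.2), Aldoc (41.4 ± 9.62), Pfkm (32.4 ± 4.92), Eno2 (9.67 ± 2.00) and the uncertain Eno1 (0.142) lay below Bnip3. Slc2a1, the basal glucose transporter, had 68.7 ± 17.1, and Hif1a, which encodes the oxygen-labile subunit of HIF, had 52.3 ± 6.24.

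**Figure D1:**
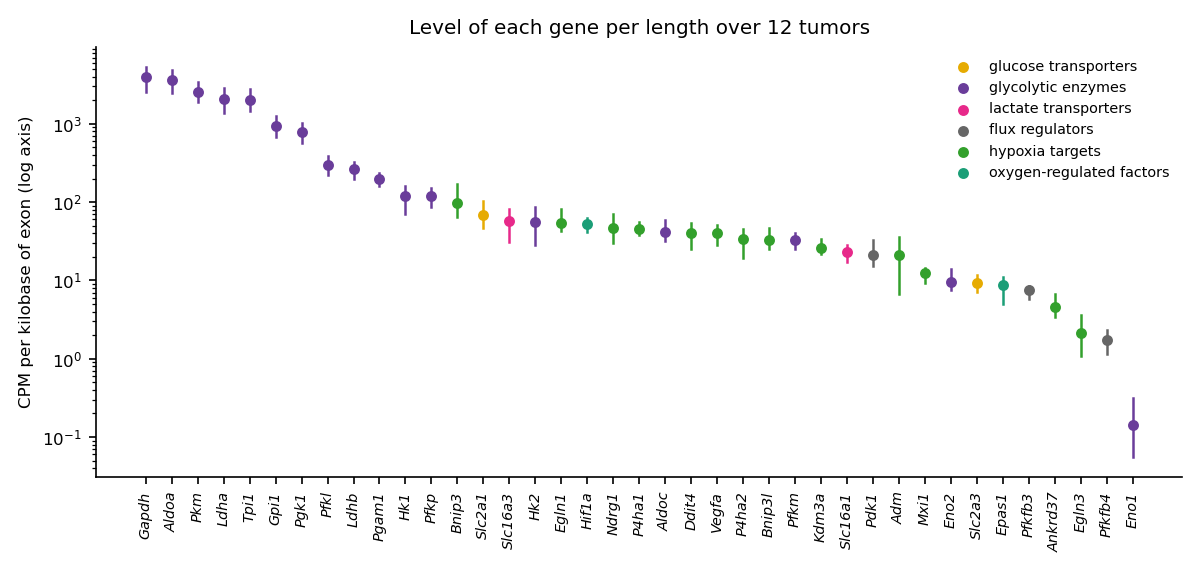
Level of each of the 39 genes in CPM per kilobase of exon, on a log axis, as the mean (point) and the range (line) of 12 tumors, colored by class. Gapdh is highest at 4009, Bnip3 leads the hypoxia targets at 97.2, and Eno1, which has a near-identical copy, is lowest at 0.142.

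Where several isozymes catalyze a step, 1 form supplied most of the transcript. Ldha made up 88.3 ± 1.89% of Ldha and Ldhb per kilobase (SD, n = 12), and Aldoa made up 98.9 ± 0.200% of Aldoa and Aldoc. Of the phosphofructokinase transcripts, Pfkl supplied 65.8 ± 1.32%, Pfkp 26.9 ± 1.04% and the muscle form Pfkm 7.30 ± 0.707%. Hk1, the widely expressed hexokinase, supplied 69.0 ± 4.18% of Hk1 and Hk2, with tumors between 58.9 and 73.6%. Slc2a1 supplied 87.8 ± 2.00% of the glucose transporter pair, and Slc16a3, the lactate exporter of glycolytic cells, 70.7 ± 5.33% of the lactate transporter pair. Hif1a supplied 85.8 ± 2.29% of Hif1a and Epas1, and Egln1 96.3 ± 0.793% of Egln1 and Egln3. Each form that dominated over all tumors also dominated in each of the 4 groups. The 10 shares were set side by side in the 4 comparisons of diet or treatment, and in 11 of these 40 cases the groups did not overlap. For the levels of single genes, 5.37 to 10.4% of all tested genes separated the groups in each direction of these comparisons. These percentages hold for each direction alone, whereas the 11 cases count both directions, so the percentages understate what the cases should be read against. How often ratios between other genes separate the groups was not examined. The shares of 1 set of isozymes sum to the whole and so are not independent. There were 4 cases in the response of non-obese mice (Pfkl, Pfkp, Egln1 and Hif1a), 1 in that of obese mice (Slc2a1), 4 in the diet comparison under isotype (Pfkl, Pfkm, Egln1 and Hif1a) and 2 in that under anti-PD-1 (Pfkp and Slc2a1). The Pfkm share was 7.42 to 8.83% in non-obese isotype and 6.45 to 6.95% in obese isotype tumors, and the Pfkp share was 27.2 to 28.4% in non-obese isotype and 25.2 to 25.7% in non-obese anti-PD-1 tumors. The Hif1a share was 82.7 to 84.2% in non-obese isotype and 85.2 to 90.5% in obese isotype tumors. No test was made on the shares. The Ldha share had the lowest group mean in obese isotype tumors (86.1 ± 2.15%, SD, n = 3) against 89.0 ± 1.41% in non-obese isotype tumors, and the tumors of the 2 groups overlapped.

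Members differed widely between tumors of the same group (the map of levels by tumor). Non-obese isotype tumor 1 had 37 of the 38 tested members above their mean over all tumors, obese anti-PD-1 tumor 1 had 35, and non-obese anti-PD-1 tumors 1 and 2 had 33 and 32. At the other end, non-obese isotype tumor 3 had 5, non-obese anti-PD-1 tumor 3 had 8 and obese anti-PD-1 tumor 2 had 9. The 3 obese isotype tumors had similar counts, with 10 to 13 members above their means, although tumor 2 held the lowest value of all 12 tumors for 8 members. Obese anti-PD-1 tumor 1 held the highest value of all 12 tumors for 15 members and non-obese anti-PD-1 tumor 1 for 11, whereas non-obese anti-PD-1 tumor 3 held the lowest for 17. In non-obese anti-PD-1 tumors, Gapdh was 8059, 6088 and 3864 CPM in tumors 1, 2 and 3. In the same tumors, Adm, which encodes a vasodilator peptide, was 50.2, 25.8 and 9.36 CPM. Of the 8 members above their mean in tumor 3 of that group, 3 had their highest value of the 12 tumors there. Eno2 (the neuronal enolase) was 39.4 CPM, Kdm3a (a histone demethylase induced by hypoxia) was 170.1 CPM, and Vegfa, which directs vessel growth, was 177.9 CPM, close to the 177.6 CPM of obese anti-PD-1 tumor 1.

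**Figure D2:**
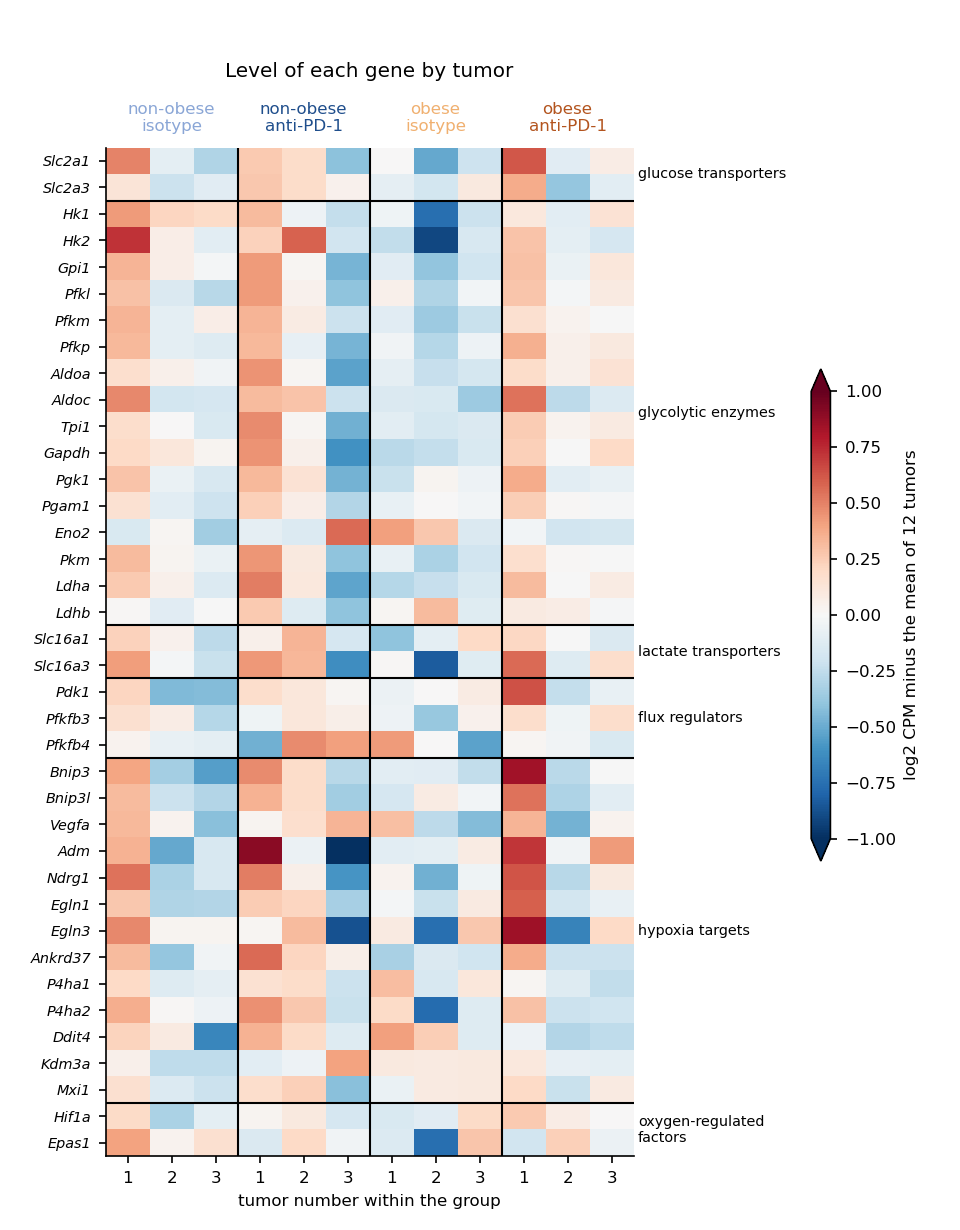
Log2 CPM of the 38 tested genes (rows, by class) in each of 12 tumors (columns, by group), minus the gene's mean over the 12 tumors, with red above and blue below the mean. The columns of non-obese isotype tumor 1, non-obese anti-PD-1 tumor 1 and obese anti-PD-1 tumor 1 are red in 37, 33 and 35 genes.

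Markers of other cells differed between these tumors too. The summed level of 10 skeletal muscle markers was 18.6 CPM in non-obese isotype tumor 1 against 390.0 and 342 CPM in tumors 2 and 3 of that group. In non-obese anti-PD-1 tumors it was 8.99, 219 and 397 CPM, and in obese anti-PD-1 tumors 44.2, 287 and 653 CPM. In obese isotype tumors it was 11.9, 21.6 and 142 CPM, with 1 of the 10 markers at 0 in tumor 1 and 0 at 0 in the other 11 tumors. The sum of 10 fibroblast markers was likewise lowest in tumor 1 of the non-obese isotype, non-obese anti-PD-1 and obese anti-PD-1 groups, at 673 against 2595 and 2939 CPM, 319 against 620.2 and 606 CPM, and 468 against 1552 and 1987 CPM. In obese isotype tumors it was 1088, 245 and 1192 CPM. The sum of 10 proliferation markers was 2407 CPM in non-obese anti-PD-1 tumor 1, 2546 in non-obese isotype tumor 1 and 2602 in obese anti-PD-1 tumor 1, within the range of 2129.6 to 2994 CPM over all tumors. The part of these markers in the members' levels was not tested. In bulk tissue, fewer cells of a type and less RNA per cell cannot be told apart.

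Glycolytic enzymes and hypoxia targets moved together from tumor to tumor within groups. For deviations from the group means over the 12 tumors, the median Pearson correlation was 0.77 over the 120 pairs of glycolytic enzymes, of which 104 were positive. It was 0.63 over the 78 pairs of hypoxia targets and 0.66 over the 208 pairs that join the classes, against -0.003 over all pairs of tested genes. The pairs share the same 12 libraries, so these values are descriptive. The within-group SD was 0.18 for Pgam1 to 0.38 for Hk2 among glycolytic enzymes on the log2 scale. Among hypoxia targets it ran from 0.18 for Kdm3a to 0.67 for Adm and 0.58 for Egln3. Adm thus stood at the 91.8th percentile of all tested genes for spread and Kdm3a at the 37.0th.

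As a summary of each class, the median over its genes of the centred log2 CPM was taken in each tumor. In the 3 tumors with most members high, the glycolytic value was 0.29, 0.33 and 0.25 and the hypoxia value 0.32, 0.35 and 0.37 (non-obese isotype, non-obese anti-PD-1 and obese anti-PD-1 tumor 1). The difference of the classes, hypoxia targets minus glycolytic enzymes, was 0.13, 0.09 and 0.13 in the obese isotype tumors and 0.01, 0.14 and 0.13 in the non-obese anti-PD-1 tumors. All 6 values were positive. It was 0.03, -0.23 and -0.10 in the non-obese isotype tumors and 0.12, -0.22 and -0.12 in the obese anti-PD-1 tumors, where tumor 1 was positive and the others negative. The group means were -0.10 ± 0.13 (SD, n = 3) for non-obese isotype, 0.10 ± 0.07 for non-obese anti-PD-1, 0.12 ± 0.02 for obese isotype and -0.07 ± 0.17 for obese anti-PD-1, and the pooled within-group SD was 0.11. Over 20 alternatives these means ranged from -0.17 to -0.04, 0.03 to 0.18, 0.09 to 0.16 and -0.12 to 0.002, in the same order. The obese anti-PD-1 mean kept its sign in 19 of 20. Hence the glycolytic enzymes were low relative to the hypoxia targets in the obese isotype tumors, in non-obese anti-PD-1 tumors 2 and 3 and in obese anti-PD-1 tumor 1. In tumors 2 and 3 of the non-obese isotype and obese anti-PD-1 groups the reverse held. Several of these differences were close to the pooled within-group SD of 0.11. No test was made over the classes.

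**Figure D3:**
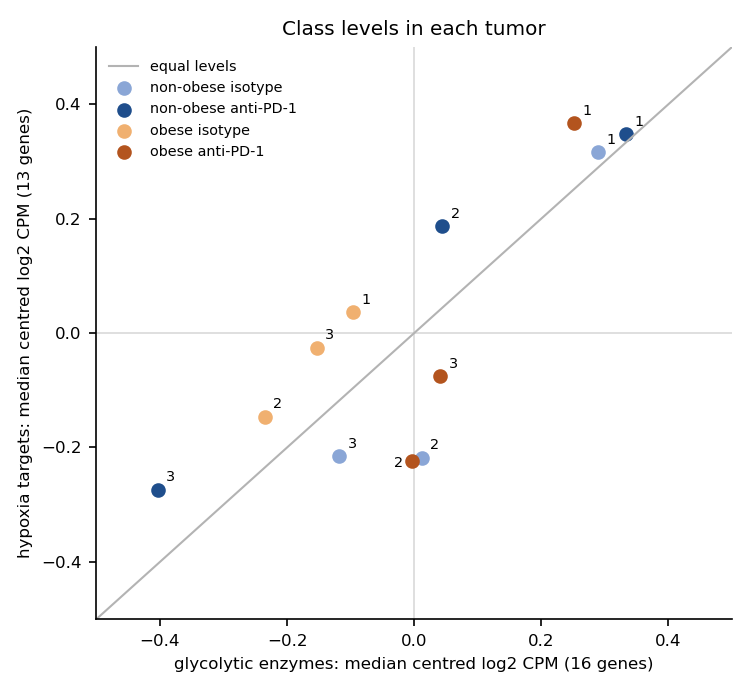
Median centred log2 CPM of the 13 hypoxia targets against that of the 16 tested glycolytic enzymes, 1 point for each tumor, colored by group and labeled with the tumor number, with the line of equal levels. The 3 points at the upper right are tumors 1 of 3 groups, and the 3 obese isotype tumors lie above the line by 0.09 to 0.13.

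In the 6 comparisons that follow, 0 of the 38 tested members passed an FDR (Benjamini-Hochberg over all 13095 genes) below 0.05 by edgeR's quasi-likelihood test. Of all tested genes, 0% passed for anti-PD-1 against isotype in non-obese mice, 0% for the same in obese mice and 0% for obese against non-obese under isotype. The share was 0.382% for obese against non-obese under anti-PD-1, 0% for the difference between the responses and 0.183% for obese against non-obese averaged over treatments. The study's methods instead required more than a 2-fold change and an unadjusted P below 0.05. By that rule 0 members passed in any comparison, whereas 2.42%, 2.44%, 1.37%, 4.25%, 5.76% and 0.512% of all tested genes did, in the same order. Counts at an unadjusted P below 0.05 are therefore given as descriptions beside the share of all tested genes. DESeq2 placed 1 member below an FDR of 0.05, Hk1 in the diet comparison under isotype (0.0466). For 1 gene compared between 3 and 3 tumors, exact permutation gives no P below 0.1. The diet and treatment comparisons share groups: the obese isotype tumors enter both the response in obese mice and the diet comparison under isotype.

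In non-obese mice, anti-PD-1 left the members with small differences of both signs. The median log2 fold change was -0.02 over 16 glycolytic enzymes and 0.14 over 13 hypoxia targets, beside 0.02 over all tested genes. Among hypoxia targets 11 of 13 had a positive value, and among glycolytic enzymes 7 of 16. At an unadjusted P below 0.05, 0 members were higher and 0 lower, against 1.64% and 3.59% of all tested genes. In 0 members did the groups separate, against 5.81% of genes that were higher in all 3 tumors and 5.37% that were lower. The smallest P among hypoxia targets was that of Kdm3a (log2 fold change 0.25 ± 0.14 SE, FDR 0.929) and among glycolytic enzymes that of Eno2 (0.30 ± 0.19, FDR 0.929). In the other classes it was that of Slc2a3, the neuronal-type glucose transporter (0.23 ± 0.17, FDR 0.929), Slc16a1 (0.07 ± 0.17, FDR 0.971), Pdk1 (0.29 ± 0.21, FDR 0.929) and Epas1 (-0.19 ± 0.21, FDR 0.941). The glycolytic median turned to 0.12 without non-obese isotype tumor 1 and to 0.16 without non-obese anti-PD-1 tumor 3, and it was -0.23 without non-obese anti-PD-1 tumor 1. The hypoxia median was 0.002 without non-obese anti-PD-1 tumor 1 and 0.36 without non-obese isotype tumor 1. In this comparison the median of the adipocyte markers was -1.81 (5 of 9 lower at an unadjusted P below 0.05), fibroblast markers -1.52 (7 of 10) and macrophage markers -0.97 (7 of 9), and their part was not tested.

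In obese mice, 14 of 16 glycolytic enzymes had a positive log2 fold change with anti-PD-1 against isotype, and 0 of the 16 had an unadjusted P below 0.05. Their median log2 fold change was 0.29, and that of the hypoxia targets was 0.16 with 9 of 13 positive, beside -0.01 over all tested genes. Gapdh was 4888, 4995 and 5290.4 CPM in obese isotype tumors and 6937, 5869.5 and 6774 CPM in obese anti-PD-1 tumors. The groups did not overlap for Gapdh (log2 fold change 0.37 ± 0.20 SE, FDR 0.697). They also separated for Pfkm, Gpi1, Ldha, Pfkp, Aldoa, Tpi1 and Pkm, with log2 fold changes of 0.25 to 0.36. These 8 of 16 glycolytic enzymes were higher in all 3 anti-PD-1 tumors, against 5.45% of all tested genes, and 0 members were lower in all 3, against 7.0%. Since these enzymes moved together from tumor to tumor, the 8 genes are not 8 independent observations. At an unadjusted P below 0.05, 0 members were higher and 0 lower, against 4.30% and 3.27% of all genes. The count was again 0 in 7 of 20 alternatives. It was 4 with DESeq2 (beside 7.97% of all genes), 9 without non-obese anti-PD-1 tumor 3 (10.1%) and 11 with only the 6 tumors compared (7.42%). With the tumor number as a block it was 6 (7.44%): Slc2a1, Hk1, Pfkm, Gpi1 and Slc16a3 were higher and Ddit4 lower, with FDR of 0.496 or more.

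The hypoxia targets did not separate obese anti-PD-1 from obese isotype tumors in any of the 13 genes. Bnip3 was 162, 160.5 and 146 CPM with isotype and 312, 144 and 173 CPM with anti-PD-1, so that tumor 1 alone lay far above the other group. Without that tumor, the median of the hypoxia targets was -0.08 and that of the glycolytic enzymes 0.22. Ddit4, an inhibitor of mTORC1 signaling, had the smallest P of the class and was lower with anti-PD-1 (log2 fold change -0.39 ± 0.21 SE, FDR 0.697). Its values were 93.6, 83.6 and 64.3 CPM with isotype and 67.8, 57.3 and 58.9 CPM with anti-PD-1. Pfkm had the smallest P among glycolytic enzymes (0.29 ± 0.14, FDR 0.679). In the other classes it was that of Slc2a1 (0.45 ± 0.24, FDR 0.697), Slc16a3 (0.50 ± 0.28, FDR 0.706), Pfkfb3, which makes an activator of phosphofructokinase (0.22 ± 0.14, FDR 0.737), and Hif1a (0.14 ± 0.14, FDR 0.867). Slc2a1 was 219, 153 and 189 CPM with isotype and 335, 201 and 229.6 CPM with anti-PD-1, and the groups overlapped. Markers of other cells differed in this comparison: the sum of 9 T and NK cell markers was 1.56 to 2.20 CPM with isotype and 5.07 to 19.1 CPM with anti-PD-1, and that of 10 skeletal muscle markers 11.9 to 142 and 44.2 to 653 CPM. Adipocyte markers had a median log2 fold change of 3.01, with 9 of 9 higher at an unadjusted P below 0.05 and 9 of 9 higher in all 3 anti-PD-1 tumors. The part of these markers in the members' values was not tested.

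**Figure D4:**
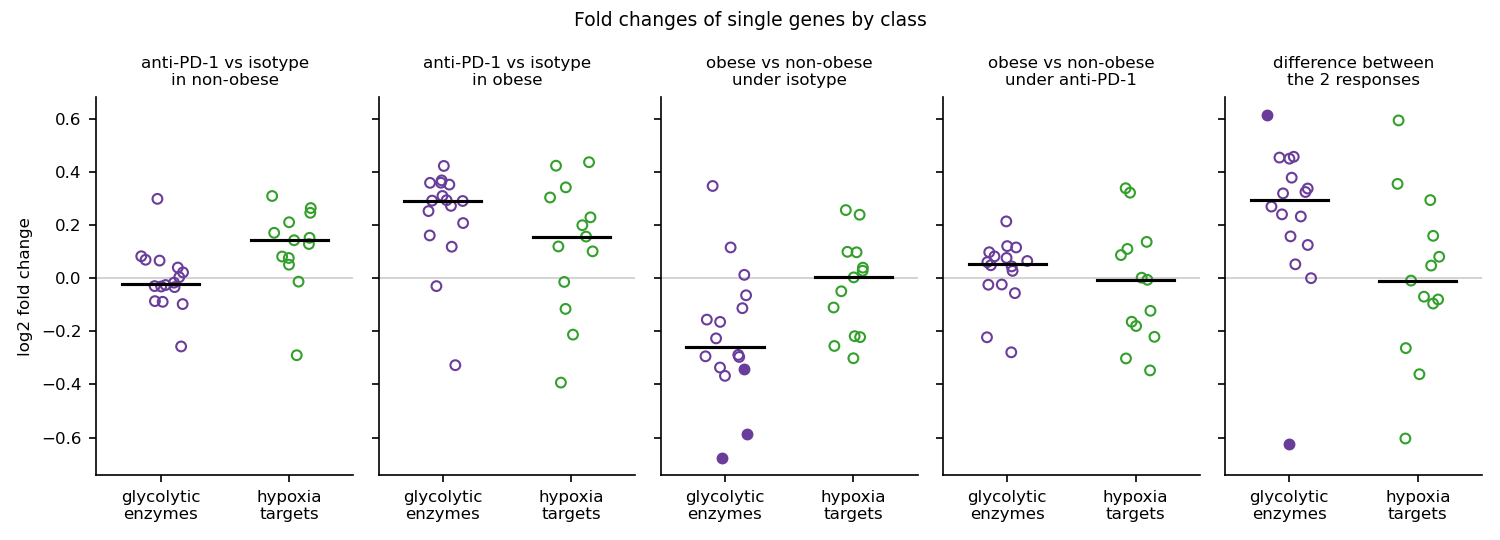
Log2 fold changes of 16 glycolytic enzymes and 13 hypoxia targets in 5 comparisons, 1 circle for each gene (filled where the unadjusted P was below 0.05), with the class median as a bar. The glycolytic bar lies at 0.29 in the response of obese mice and at -0.26 in the diet comparison under isotype, and the hypoxia bar at 0.16 and 0.003.

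Under isotype, 13 of 16 glycolytic enzymes had a negative log2 fold change in obese against non-obese mice, with the largest for the hexokinases, and 3 of the 16 had an unadjusted P below 0.05. Hk1 was 770.0, 666 and 655 CPM in non-obese isotype tumors and 557, 340.1 and 493 CPM in obese isotype tumors. All obese tumors lay below all non-obese tumors (log2 fold change -0.59 ± 0.18 SE, FDR 0.250 by edgeR). Hk2, the hexokinase typical of muscle and tumors, was 489.9, 309.8 and 275 CPM against 250.2, 157 and 265 CPM (-0.68 ± 0.25, FDR 0.310). Pfkm was 121, 89.6 and 101 CPM against 88.7, 74.5 and 82.4 CPM (-0.34 ± 0.14, FDR 0.347). The groups did not overlap for either gene, although the nearest tumors of the 2 groups were close. Hk1 spans chr10:62268855-62379908, Hk2 chr6:82725025-82774454 and Pfkm chr15:98092589-98132451 (GENCODE M21, GRCm38), and the matched letters in the Hk1 and Hk2 promoters are shown above.

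These 3 enzymes were the members with an unadjusted P below 0.05, all lower, against 6.17% of all tested genes, and 0 were higher, against 7.11%. A total of 8 of 16 glycolytic enzymes were lower in all 3 obese tumors, against 9.02% of all tested genes: Hk1, Hk2, Pfkm, Gpi1, Gapdh, Pkm, Ldha and Aldoa. These enzymes moved together from tumor to tumor, so here too the 8 genes are not 8 independent observations. The median log2 fold change over the 16 glycolytic enzymes was -0.26, with 13 negative. That of the hypoxia targets was 0.003, with 6 of 13 negative, beside 0.01 over all tested genes. With RLE in place of TMM scaling the glycolytic median was -0.27 and the hypoxia median -0.01. Without non-obese isotype tumor 1 the hypoxia median was 0.22. Only Kdm3a among the hypoxia targets separated the groups, in the opposite direction, against 10.4% of all tested genes that were higher. It was 133, 107.9 and 107.6 CPM in non-obese and 138, 136 and 137 CPM in obese tumors (0.24 ± 0.14, FDR 0.458). Vegfa was 175, 144 and 105 CPM against 173, 117 and 104 CPM (-0.11 ± 0.23, FDR 0.858).

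In the other classes of the diet comparison under isotype, the smallest P was that of Slc2a1 (log2 fold change -0.30 ± 0.24 SE, FDR 0.605), Slc16a3 (-0.35 ± 0.28, FDR 0.594), Pdk1 (0.19 ± 0.21, FDR 0.711) and Epas1 (-0.34 ± 0.21, FDR 0.481). The hexokinase values rested in part on single tumors. Without non-obese isotype tumor 1, Hk1 was at -0.51 ± 0.20, still with an unadjusted P below 0.05. Hk2 was then at -0.38 ± 0.24 and Pfkm at -0.21 ± 0.15, neither of them past that threshold, and the glycolytic median was -0.12. Without obese isotype tumor 2, Hk1 was at -0.42 ± 0.16, again past the threshold, and Hk2 at -0.49 ± 0.25 and Pfkm at -0.29 ± 0.16 were not. Skeletal muscle markers, whose tissue is rich in Hk2 and Pfkm, had a median log2 fold change of -2.14 over 10 genes in the same comparison, with 0 of 10 at an unadjusted P below 0.05. Adipocyte markers had a median of -1.36 with 5 of 9 lower at that threshold, fibroblast markers -0.92 with 2 of 10 lower, and macrophage markers -0.61 with 3 of 9 lower. Their part was not tested.

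**Figure D5:**
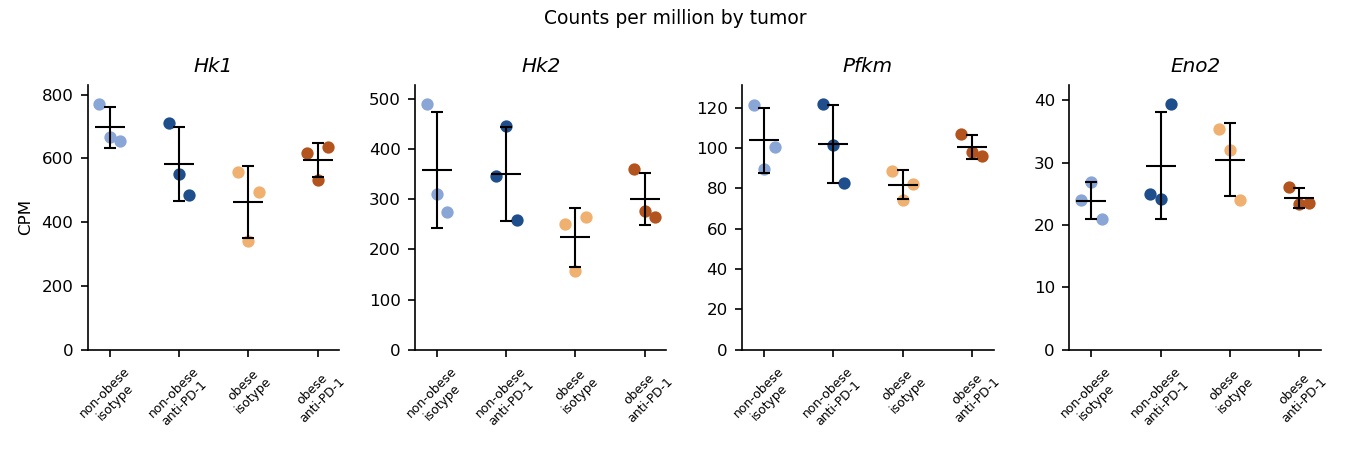
CPM of Hk1, Hk2, Pfkm and Eno2 in each tumor (points, tumors 1 to 3 from left to right) with the mean and SD of each group of 3. Hk1 in obese isotype tumors (340.1 to 557 CPM) lies below all non-obese isotype tumors (655 to 770.0 CPM).

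Under anti-PD-1, obese and non-obese tumors overlapped for every tested member. At an unadjusted P below 0.05, 0 members were higher and 0 lower, against 5.71% and 4.56% of all tested genes. Groups that separated made up 6.54% (higher) and 7.06% (lower) of all tested genes and 0 of the members. The median log2 fold change was 0.05 over glycolytic enzymes and -0.006 over hypoxia targets, beside -0.01 over all genes. Neither held its sign: over the alternatives, the glycolytic median ranged from -0.10 (without non-obese anti-PD-1 tumor 3) to 0.25 (without non-obese anti-PD-1 tumor 1), and the hypoxia median from -0.23 (without obese anti-PD-1 tumor 1) to 0.11 (without obese anti-PD-1 tumor 2). Hk1 was 712, 552 and 487 CPM in non-obese anti-PD-1 tumors and 616, 533 and 635 CPM in obese anti-PD-1 tumors, and the groups overlapped (0.03 ± 0.18, FDR 0.980). The smallest P was that of Ddit4 among hypoxia targets (-0.35 ± 0.20, FDR 0.618). In the fit with the tumor number as a block it had an unadjusted P below 0.05 (-0.33 ± 0.13, FDR 0.429), as 1 of 38 members beside 9.81% of all genes. Among glycolytic enzymes the smallest P was that of Eno2 among glycolytic enzymes (-0.28 ± 0.19, FDR 0.692). For the other classes it was that of Slc2a3 (-0.18 ± 0.17, FDR 0.806), Slc16a3 (0.11 ± 0.28, FDR 0.941), Pfkfb4 (-0.26 ± 0.28, FDR 0.836) and Hif1a (0.13 ± 0.14, FDR 0.844). Here the median of the T and NK cell markers was 3.6 (7 of 7 higher at an unadjusted P below 0.05), adipocyte markers 2.73 (8 of 9), fibroblast markers 1.33 (3 of 10) and macrophage markers 1.28 (8 of 9), and their part was not tested. The transcript of Hif1a was 252 to 303 CPM in the non-obese and 284 to 339 CPM in the obese tumors, and HIF is controlled mainly at the protein level, which was not measured here.

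Averaged over both treatments, Hk2 (log2 fold change -0.45 ± 0.18 SE, FDR 0.401) and Hk1 (-0.28 ± 0.13, FDR 0.463) were lower in obese mice at an unadjusted P below 0.05. These were 2 of 38 members, against 5.19% of all tested genes, and 0 members were higher, against 5.21%. For Hk1 the diet difference was -0.59 ± 0.18 under isotype, whereas the anti-PD-1 means were 583 CPM in non-obese and 594 CPM in obese tumors. The averaged Hk1 value thus does not describe both treatments. The anti-PD-1 means of Hk2 were 351 CPM in non-obese and 301 CPM in obese tumors. The median was -0.09 over glycolytic enzymes and -0.002 over hypoxia targets, and over the alternatives these ranged from -0.22 (without non-obese anti-PD-1 tumor 3) to 0.04 (tumors numbered 2 and 3 only) and from -0.15 (without obese anti-PD-1 tumor 1) to 0.11 (without non-obese isotype tumor 1). The hypoxia target with the smallest P was P4ha2, a subunit of the collagen prolyl hydroxylase (-0.26 ± 0.16, FDR 0.611). In the other classes it was Slc2a3 (-0.09 ± 0.12, FDR 0.835), Slc16a1 (-0.08 ± 0.12, FDR 0.859), Pdk1 (0.12 ± 0.15, FDR 0.812) and Epas1 (-0.18 ± 0.15, FDR 0.716). In the fit with the tumor number as a block, P4ha2 also had an unadjusted P below 0.05 (-0.27 ± 0.12, FDR 0.448). The count in that fit was 3 of 38 members, beside 10.5% of all genes. Without non-obese isotype tumor 1, Hk1 was at -0.24 ± 0.14 and Hk2 at -0.30 ± 0.16, and 0 members had an unadjusted P below 0.05. T and NK cell markers had a median of 1.14 here (3 of 7 higher at that threshold) and adipocyte markers 0.56 (4 of 9 higher). Skeletal muscle markers had a median of -0.78, with 10 of 10 negative and 0 past that threshold. The part of these markers was not tested.

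The difference between the 2 responses, obese minus non-obese, asks whether anti-PD-1 was followed by another shift in obese than in non-obese mice. Over glycolytic enzymes the median difference was 0.29 on the log2 scale with 14 of 16 positive, and over hypoxia targets -0.009 with 6 of 13 positive, beside -0.04 over all tested genes. The glycolytic median was 0.12 without non-obese anti-PD-1 tumor 3 and 0.49 without non-obese anti-PD-1 tumor 1, and the hypoxia median ranged from -0.22 to 0.16 when single tumors were left out. Adipocyte markers had a median difference of 4.89 (9 of 9 higher at an unadjusted P below 0.05), T and NK cell markers 4.43 (7 of 7), fibroblast markers 2.17 (7 of 10) and macrophage markers 1.91 (9 of 9), and their part was not tested. Hk1 had a positive difference (0.62 ± 0.25 SE, FDR 0.326) and Eno2 a negative one (-0.63 ± 0.27, FDR 0.349). Each was the only member with an unadjusted P below 0.05 in its direction, against 7.01% and 5.87% of all tested genes. For Hk1, the mean went from 697 ± 63.5 to 583 ± 116 CPM (SD, n = 3) in non-obese mice and from 463 ± 112 to 594 ± 53.9 CPM in obese mice. For Eno2, it went from 23.9 ± 2.98 to 29.5 ± 8.57 CPM in non-obese mice and from 30.5 ± 5.84 to 24.3 ± 1.55 CPM in obese mice. The high mean of the non-obese anti-PD-1 group came from tumor 3, and without it the difference for Eno2 was -0.33 ± 0.22. With the tumor number as a block, Hk1 (0.64 ± 0.21, FDR 0.226) and Ddit4 (-0.60 ± 0.19, FDR 0.216) had an unadjusted P below 0.05 and Eno2 (-0.63 ± 0.29) did not. In the other classes the smallest P was that of Ddit4 (-0.60 ± 0.29, FDR 0.406), Slc2a1 (0.48 ± 0.34, FDR 0.575), Slc16a3 (0.46 ± 0.40, FDR 0.643), Pfkfb3 (0.18 ± 0.20, FDR 0.729) and Epas1 (0.34 ± 0.30, FDR 0.650).

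Further genes of the same pathways were read from 3 lists. Of 36 tested genes of glucose metabolism outside the members (isozymes, glycogen, gluconeogenesis, pyruvate entry and the pentose phosphate branch), 0 had an FDR below 0.05 in any comparison. At an unadjusted P below 0.05, 0 were higher and 1 lower in the response of non-obese mice, 5 and 1 in that of obese mice, 1 and 7 in the diet comparison under isotype, and 2 and 1 in that under anti-PD-1. The shares of all tested genes that were higher and lower were 1.64% and 3.59%, 4.30% and 3.27%, 7.11% and 6.17%, and 5.71% and 4.56%, in the same order. The lower genes under isotype included the muscle isozymes Eno3 (log2 fold change -0.42 ± 0.14 SE, FDR 0.274) and Pgam2 (-3.36 ± 1.16, FDR 0.286), beside the muscle markers given above. In obese mice with anti-PD-1, Hk3, the hexokinase of myeloid cells, was higher (1.41 ± 0.39, FDR 0.286), as was Pygm, the muscle glycogen phosphorylase (1.12 ± 0.31, FDR 0.286). Macrophage markers had a median of 0.81 in that comparison (4 of 9 higher at an unadjusted P below 0.05) and skeletal muscle markers 2.50 (2 of 10). Their part was not tested. Pck2, the mitochondrial form of the gluconeogenic carboxykinase, was lower (-0.70 ± 0.19, FDR 0.282). Of 12 tested genes of the oxygen-sensing machinery, 1 was higher under isotype in obese mice at an unadjusted P below 0.05, Rbx1 of the VHL ubiquitin ligase (0.30 ± 0.11, FDR 0.317).

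Of 47 tested genes of other hypoxia responses, 1 passed an FDR below 0.05. Angptl4, which inhibits lipoprotein lipase and answers both to hypoxia and to fatty acid-sensing PPAR receptors, was higher in obese mice under anti-PD-1 (log2 fold change 1.69 ± 0.28 SE, FDR 0.0267) and averaged over treatments (1.22 ± 0.20, FDR 0.0276). It was 7.37, 4.17 and 3.79 CPM in non-obese and 11, 18.6 and 19.6 CPM in obese anti-PD-1 tumors. It was 6.52, 7.02 and 5.85 CPM in non-obese and 13.3, 8.46 and 10.5 CPM in obese isotype tumors, so the diet groups did not overlap in either treatment. Adipocyte markers had a median log2 fold change of 2.73 under anti-PD-1, with 8 of 9 higher at an unadjusted P below 0.05, and of -1.36 under isotype, with 5 of 9 lower. Their part in the Angptl4 values was not tested. Lox, a collagen cross-linking enzyme, was lower with anti-PD-1 in non-obese mice (-2.08 ± 0.58, FDR 0.833), where 10 fibroblast markers had a median log2 fold change of -1.52 and 7 of 10 were lower at an unadjusted P below 0.05. At that threshold 0 genes of the list were higher and 2 lower in the response of non-obese mice, 5 and 1 in that of obese mice, 6 and 2 in the diet comparison under isotype and 3 and 2 in that under anti-PD-1. These counts are read against the same shares of all tested genes, and the last, 3 and 2 of 47, stand beside 5.71% and 4.56%.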

How the data were processed

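RNA was extracted from frozen tumors, and poly(A) libraries were made with a stranded kit and read as single 100 bp reads. According to the submitters' processing notes, the authors checked reads with FastQC 0.11.5, aligned them to mm10 with STAR 2.7.0f, counted them per gene with HTSeq 0.9.1 and used edgeR 3.28.1. The deposited values are raw counts for 23420 genes by symbol, with no normalization. The annotation and strand setting are not given in the sources used here. All 12 columns matched a tumor by library name.

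Counts of all 12 tumors were fitted with edgeR 4.0.16 (R 4.3.3) after TMM scaling and filterByExpr, which kept 13095 genes, with 4 group means and 8 residual degrees of freedom. Differences were tested by the two-sided quasi-likelihood F-test (glmQLFit with legacy=TRUE) with Benjamini-Hochberg adjustment over all genes tested, and standard errors were derived from F. The labels do not say more of the replicates than that they are separate tumors. P values therefore set a difference between groups against the spread between these tumors, estimated with a dispersion trend shared over the tested genes. Counts from reads without molecular identifiers carry counting error, which at 14022929 or more counts limits only the low genes. The tumor numbers were checked as pairs: same-numbered tumors of the 2 anti-PD-1 groups had correlations of 0.44, 0.11 and 0.35. The value for number 2 was no higher than that of non-obese tumor 2 with obese tumor 3 (0.12) or the reverse (0.12). In each of the other 3 simple comparisons, at least 1 same-numbered pair was not above 0.1. Class levels use log2 CPM with a prior count of 2. Exon lengths and positions come from GENCODE M21, and promoters from RefSeq, both on GRCm38.

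The members and gene lists were chosen with earlier results of these data known. All 39 members could be named, with full statistics for the smallest P of each class and comparison and for every member with an unadjusted P below 0.05. From the 3 pathway lists, the 2 genes with the smallest P in each direction of a comparison could be named. Marker lists of melanocytes, muscle, macrophages, neutrophils, T and NK cells, endothelium, fibroblasts, adipocytes, erythroid cells, keratinocytes and proliferation were summed. The code was tested on simulated data. Alternatives were DESeq2 1.42.0, RLE scaling, other filters, glmQLFit with legacy=FALSE, other class definitions, the replicate number as a block, the 6 tumors compared only, and leaving out each tumor. The fit of tumors numbered 2 and 3 only was chosen after seeing the data.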

Additional observations from a re-analysis of the deposited data

Results flagged for a closer look

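The response to anti-PD-1 differed between obese and non-obese mice at an unadjusted P below 0.05 for 2 of the 38 tested members by edgeR's interaction contrast, that is 5.26% of them, beside 12.9% of all tested genes. The difference was 0.62 for Hk1 (FDR 0.326) and -0.63 for Eno2 (FDR 0.349) on the log2 scale. The response of Hk1 was 0.36 ± 0.18 SE in obese and -0.26 ± 0.18 in non-obese mice, and that of Eno2 was -0.33 ± 0.19 and 0.30 ± 0.19, none of these 4 past an unadjusted P below 0.05. Under 19 alternative settings the difference kept its sign in all 19, with P below 0.05 in 14 for Hk1 (0.44 to 0.82) and in 9 for Eno2 (-0.76 to -0.33). With the replicate number as a block, Hk1 and Ddit4 (-0.60 ± 0.19) passed that threshold and Eno2 (-0.63 ± 0.29) did not. The cause was not tested.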

How the results depend on the processing

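The glycolytic medians of the response in obese mice (0.22 to 0.35) and of the diet difference under isotype (-0.38 to -0.11) kept their sign in all 23 alternatives. So did the hypoxia median of the response in non-obese mice (0.002 to 0.36). The glycolytic median of the difference between the responses did in all 22 (0.12 to 0.49). The hypoxia median of the diet difference under isotype kept its sign in only 8 of 23, and that of the difference between the responses in 10 of 22. In the diet difference under isotype, Hk1 kept its sign in all 20 alternatives run for it (-0.76 to -0.42), with an unadjusted P below 0.05 in 20 of 20. Hk2 and Pfkm passed that threshold in 17 of 20 each. The count of members with an unadjusted P below 0.05 was unstable. With DESeq2 it was 4 for the response in obese mice (beside 7.97% of all tested genes), and 1 member (Hk1, FDR 0.0466) passed an FDR of 0.05 in the diet comparison under isotype. With at least 10 counts in every tumor it was 2 for the response in obese mice (6.83%) and 1 for the difference between the responses (11.2%). With only the 6 tumors compared it was 11 for the response in obese mice (28.9% of the members, beside 7.42% of all genes), 8 for diet under isotype (21.1% beside 13.8%) and 1 for diet under anti-PD-1 (2.63% beside 8.36%). With tumors numbered 2 and 3 only, chosen after seeing the data, it was 5 and 2 for the responses in non-obese and obese mice, 2 for diet under anti-PD-1, 4 for the difference between the responses and 1 for the averaged diet comparison, beside 12.3%, 12%, 14.1%, 21.5% and 11.7% of all genes. In that fit the hypoxia median of the difference was -0.30, and 1 member passed an FDR of 0.05 in it (Pdk1, -0.72 ± 0.16 SE, FDR 0.0434). The cause was not tested.

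Leaving out each tumor in turn gave 0 to 3 members for the response in non-obese mice, 0 to 9 for that in obese mice, 1 to 9 for diet under isotype, 0 to 6 for diet under anti-PD-1, 0 to 11 for the difference and 0 to 8 for the averaged comparison, with 0 members past an FDR of 0.05 by edgeR throughout. Counts were 9, 9 and 8 for the response in obese mice, diet under isotype and averaged diet without non-obese anti-PD-1 tumor 3, beside 10.1%, 15.8% and 13.3% of all genes. Without non-obese anti-PD-1 tumor 1 they were 3, 6, 5, 6 and 11 for the responses in non-obese and obese mice, diet under isotype, diet under anti-PD-1 and the difference, beside 8.73%, 8.19%, 13.6%, 13.5% and 16.9%. Without obese isotype tumor 2 they were 1, 0 and 0 for diet under isotype, the difference and averaged diet, beside 7.05%, 9.58% and 8.21%. Over all groups the replicate numbers do not pair the tumors: deviations of same-numbered tumors had a mean correlation of 0.13 over 18 pairs (-0.26 to 0.56) and those of other numbers -0.06 over 36. All 3 correlations were above 0.1 between the anti-PD-1 groups of both diets and between the non-obese isotype and obese anti-PD-1 groups (0.56, 0.18 and 0.41). In both of these pairs of groups, the differently numbered tumors 2 and 3 also had correlations above 0.1. No simple comparison sets the non-obese isotype and obese anti-PD-1 groups side by side. Both enter the averaged diet comparison and the difference between the responses. With the replicate block the count was 6 for the response in obese mice (15.8% of the members, beside 7.44% of all genes) and 1 for diet under anti-PD-1. It was 4 for diet under isotype, with Gpi1 added (10.5% beside 12.6%), and 3 for the averaged comparison, with P4ha2 added (7.89% beside 10.5%). With this block, 0 members passed an FDR of 0.05. For Hk1, Hk2, Pfkm and Eno2 in the comparisons where they had an unadjusted P below 0.05, 102 values under an alternative stayed on that side of the threshold, 34 did not, and 0 changed sign. Over all members signs were less stable: 18 of 38 changed sign for diet under anti-PD-1 without non-obese anti-PD-1 tumor 3, and 14 without obese anti-PD-1 tumor 1.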
